A study of Mus musculus with 20 samples.

Results

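Trimethylation of histone H3 at lysine 9 (H3K9me3) was measured by chromatin immunoprecipitation and sequencing (ChIP-seq) in control mouse germline stem cells (GSCs), and it is described here over the matched input DNA at 1 window for each annotated gene. The 4 libraries were chosen by their labels, as the H3K9me3 libraries 1 and 2 and the input libraries 3 and 4 of the control genotype, out of 20 libraries in the series. All 25965 windows of the ChIP-seq table were considered, and the 25249 with at least 1 read in any of the 4 libraries were tested. GSCs are cultured spermatogonial stem cells, the self-renewing cells at the base of the male germline. The study compared control cells, labelled Kmt2bF/F, with Kmt2b knockout cells, labelled FC/FC, by RNA-seq and by ChIP-seq of H3K4me3 and H3K27me3. Kmt2b encodes a methyltransferase for lysine 4 of histone H3, and H3K9me3 was not analysed here in knockout cells. The control cells received no treatment that the labels name, each library pair came from duplicate cell lines, and the antibody was Abcam ab8898. The H3K9me3 libraries and inputs 3 and 4 were made with the ThruPLEX kit, and the inputs and libraries for the other marks with a NEBNext kit.

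H3K9me3 is the mark of constitutive heterochromatin. It is written by Setdb1, which is guided to DNA by zinc finger proteins and their cofactor Trim28, and by Suv39h1 and Suv39h2, and it is read by heterochromatin proteins that compact the fibre. In mammalian cells it covers satellite repeats and many retrotransposons, and it also lies over clusters of tissue-specific genes, such as those for odorant receptors, and over arrays of zinc finger genes. In the germline, silencing that depends on Setdb1 helps to keep transposons in check.

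The H3K9me3 libraries held 41099194 and 50657504 mapped reads, as recovered from the smallest step between values, and the inputs held 63537156 and 42277927. Gene windows took 0.449% and 0.442% of the H3K9me3 reads, against 1.02% and 1.07% of the input reads. Values are RPM, the reads in a window for every 1000000 mapped reads of the library. A median window held 3 and 4 reads in the H3K9me3 libraries and 26 and 18 in the inputs, so a single read was worth 0.0243, 0.0197, 0.0157 and 0.0237 RPM. Of the 716 windows without a read in any of the 4 libraries, 253 lay on the Y chromosome and 94 on the X. In control RNA all 12 germ cell and spermatogonial markers were at 1 RPM or more, with sums of 3270 and 3220 RPM. Of 12 fibroblast markers, 9 reached that level (sums 417 and 444 RPM), as did 4 of 8 Sertoli and Leydig cell markers (21.0 and 20.4 RPM) and 1 of 5 blood markers (4.52 and 4.62 RPM). The part of such cells in the H3K9me3 values was not tested, and in bulk chromatin a mark on fewer cells and less of it per cell cannot be told apart.

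Most gene windows carried less H3K9me3 than input for their depth, and a minority stood well above it. The log2 ratio of H3K9me3 to input, computed on RPM + 0.5, had a median of -0.66 over the windows tested (-0.65 for replicate 1 and -0.67 for replicate 2) and ran from -1.82 to 2.41. By limma with Benjamini-Hochberg adjustment over all windows tested, 1530 windows (6.06%) were called higher in H3K9me3 at an adjusted p under 0.05, 20556 (81.4%) lower and 3163 (12.5%) neither. Windows called higher had median levels of 0.925 and 1.07 RPM in the H3K9me3 libraries and 0.252 and 0.284 RPM in the inputs. Windows called lower had medians of 0.0730 and 0.0592 RPM in H3K9me3 and 0.425 and 0.449 RPM in the inputs. In 1911 windows (7.57%) both H3K9me3 values lay above both inputs, and in 21401 (84.8%) both lay below. A stricter rule without a test, in which the lower H3K9me3 library is at least 2-fold above the higher input on the same scale, was met by 439 windows (1.74%), all of them called higher. With H3K9me3 replicate 1 left out, 753 windows met that rule, though leaving a library out can only keep or raise this count.

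The lower calls rest on scaling each library to its own depth. With each library centred on the median of its windows, which moves the median ratio to 0.01, 4692 windows (18.6%) were called higher and 117 (0.463%) lower. The higher calls thus made up 97.6% of all calls after centring, against 6.93% of all calls on the depth scale. All 1530 windows called higher on the depth scale were also called higher after centring. Centring raises every ratio by the same amount, so this overlap was largely set in advance and does not check the higher calls. After centring, at most 7 windows of any family or list named in the text were called lower. Ratios in the text are on the depth scale, where a typical gene stands at -0.66.

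**Figure D1:**
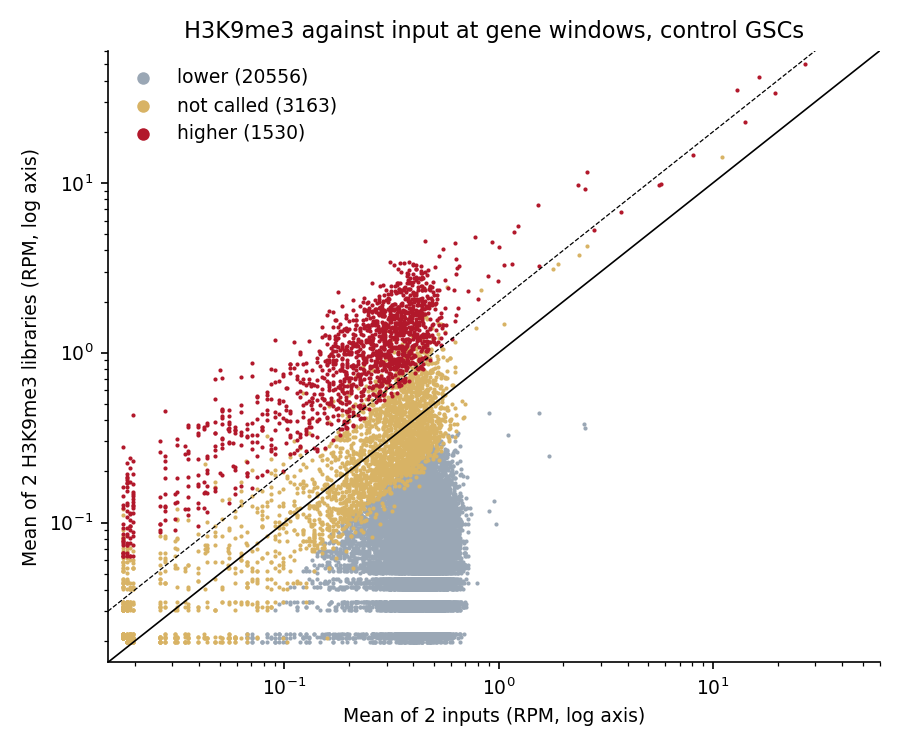
Each point is 1 gene window, with the mean of the 2 inputs on the x axis and the mean of the 2 H3K9me3 libraries on the y axis, both in RPM on log axes; the solid line marks equality, the dashed line 2-fold, and a window without a read is drawn at 0.9 of the value of 1 read. The 1530 windows called higher lie above the line, mostly near 1 RPM in H3K9me3, and the 20556 called lower lie below it.

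The promoter sequences of 6 windows show the range of CpG content among those described in the text. These are 300 bases of 6 genes from RefSeq (GRCm38.p6), from 250 bases before to 50 after the start, read 5′ to 3′ on the strand of the gene, with each CpG, the site of DNA methylation, in capitals. The first 4 are among the strongest H3K9me3 windows of their family or of the table, Tcfl5 is a window called higher that also carries H3K4me3, and Mael is a germline gene that was not called. They lie at chr7:85961433-85961732 (Vmn2r74, minus strand), chr13:23075542-23075841 (Vmn1r215, plus), chr13:33661155-33661454 (Serpinb6d, plus), chr5:77018814-77019113 (1700112J05Rik, minus), chr2:180642642-180642941 (Tcfl5, minus) and chr1:166238695-166238994 (Mael, minus).
Vmn2r74: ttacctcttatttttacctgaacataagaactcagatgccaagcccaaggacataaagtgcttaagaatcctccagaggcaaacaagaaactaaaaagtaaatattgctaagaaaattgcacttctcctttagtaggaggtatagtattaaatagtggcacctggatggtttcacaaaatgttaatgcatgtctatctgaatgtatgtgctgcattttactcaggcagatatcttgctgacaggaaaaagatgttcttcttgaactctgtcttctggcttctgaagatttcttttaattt
Vmn1r215: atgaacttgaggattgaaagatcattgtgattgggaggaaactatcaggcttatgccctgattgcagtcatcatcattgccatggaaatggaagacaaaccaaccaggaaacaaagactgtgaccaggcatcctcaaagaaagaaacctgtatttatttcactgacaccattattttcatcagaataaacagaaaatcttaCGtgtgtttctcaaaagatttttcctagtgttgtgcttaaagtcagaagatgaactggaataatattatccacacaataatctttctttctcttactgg
Serpinb6d: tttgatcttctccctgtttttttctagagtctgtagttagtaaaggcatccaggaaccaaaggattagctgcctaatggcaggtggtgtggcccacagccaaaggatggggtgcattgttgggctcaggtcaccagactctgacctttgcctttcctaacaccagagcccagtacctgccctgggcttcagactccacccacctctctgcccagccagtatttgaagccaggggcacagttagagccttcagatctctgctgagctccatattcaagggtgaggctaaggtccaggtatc
1700112J05Rik: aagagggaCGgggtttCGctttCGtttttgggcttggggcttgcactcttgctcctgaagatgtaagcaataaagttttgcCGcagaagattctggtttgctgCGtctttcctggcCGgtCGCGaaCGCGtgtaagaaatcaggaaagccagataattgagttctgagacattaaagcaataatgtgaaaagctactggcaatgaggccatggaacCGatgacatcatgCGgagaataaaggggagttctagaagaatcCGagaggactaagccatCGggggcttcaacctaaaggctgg
Tcfl5: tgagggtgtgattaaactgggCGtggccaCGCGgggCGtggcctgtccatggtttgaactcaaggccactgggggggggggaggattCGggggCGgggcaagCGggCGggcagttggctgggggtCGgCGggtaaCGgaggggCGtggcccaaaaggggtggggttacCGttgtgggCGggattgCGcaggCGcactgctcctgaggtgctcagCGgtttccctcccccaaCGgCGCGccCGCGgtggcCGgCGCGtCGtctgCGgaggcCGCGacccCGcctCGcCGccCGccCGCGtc
Mael: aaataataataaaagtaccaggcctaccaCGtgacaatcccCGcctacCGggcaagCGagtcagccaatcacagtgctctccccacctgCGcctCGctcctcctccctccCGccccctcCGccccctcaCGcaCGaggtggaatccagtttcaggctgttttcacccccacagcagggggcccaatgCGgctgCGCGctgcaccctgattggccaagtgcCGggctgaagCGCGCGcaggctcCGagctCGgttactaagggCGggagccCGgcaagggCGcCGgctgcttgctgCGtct
Vmn2r74 and Serpinb6d held 0 CpG in this stretch and Vmn1r215 held 1, while 1700112J05Rik held 14, Mael 24 and Tcfl5 35. Of all 32851 RefSeq promoter entries of this length, 94.6% held at least 1 CpG (the letters CG, the same on both strands), with a median of 7.

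The window with the highest ratio was Abpz, a gene of the salivary androgen-binding protein cluster (chr7:33737190-33739312, minus strand). It held 4.55 and 4.54 RPM in the H3K9me3 libraries and 0.504 and 0.402 RPM in the inputs, a log2 ratio of 2.41 (SE 0.32, adjusted p = 0.000168, limma). Its neighbour Abpg held 3.72 and 2.82 RPM against 0.299 and 0.497 RPM (log2 ratio 2.07). Each H3K9me3 value of both genes was more than 5-fold above either input.

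Other windows near the top of the order were clone-named, predicted and clustered genes. The long non-coding RNA gene 4930451E10Rik (chr13:55775136-55784505) held 3.82 and 3.06 RPM in H3K9me3 and 0.409 and 0.213 RPM in input, a log2 ratio of 2.28 (SE 0.31). Gm9898 held 3.41 and 3.43 RPM against 0.551 and 0.213 RPM (2.18), Gm11364 3.80 and 2.96 RPM against 0.299 and 0.426 RPM (2.16), and Gm13089 4.57 and 4.32 RPM against 0.567 and 0.686 RPM (2.14). Gm9898 was the one of these that also had H3K27me3 in both control libraries. Smok2b, a member of the sperm motility kinase family, reached 5.67 and 3.93 RPM against 0.787 and 0.757 RPM (2.04). 1700112J05Rik, with 14 CpG in its promoter, held 2.87 and 2.29 RPM against 0.252 and 0.260 RPM (2.02). In all of these the H3K9me3 libraries lay above both inputs with no overlap, and their adjusted p lay between 0.000168 and 0.000372. After quantile normalization the calls of Gm9898, Gm13089 and Smok2b were lost (adjusted p = 0.0595, 0.0873 and 0.155, limma).

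**Figure D2:**
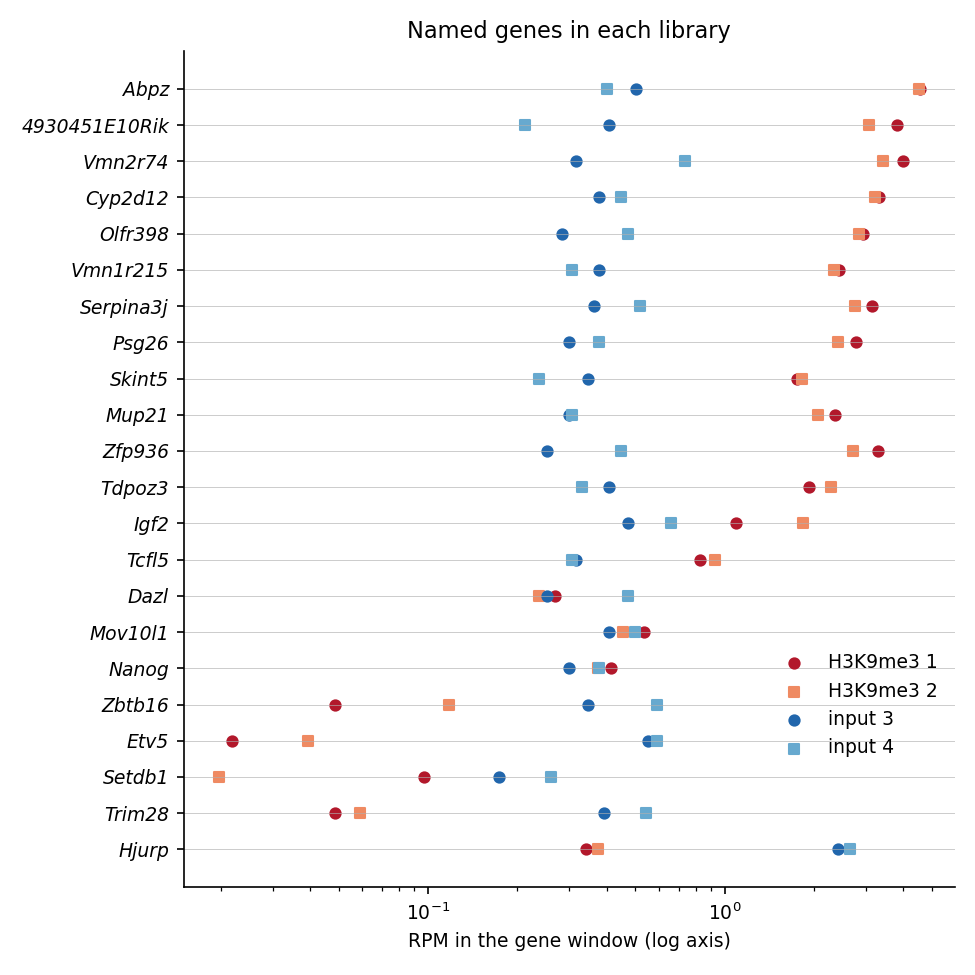
RPM in each of the 4 libraries (log axis) for 22 genes named in the text, with circles and squares for the libraries of each pair; the H3K9me3 1 value of Etv5 is that of no read. Abpz to Tcfl5 have both H3K9me3 values to the right of both inputs, Dazl, Mov10l1 and Nanog have them among the inputs, and Zbtb16 to Hjurp have them to the left.

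Receptors for odours and pheromones held a large share of the H3K9me3 windows. Olfactory receptor genes (Olfr), which encode the odorant receptors of the nose, had 370 of 1106 tested windows called higher (33.5%) and 216 called lower (19.5%), with a median ratio of 0.12. Type 1 vomeronasal receptor genes (Vmn1r), which encode pheromone receptors, had 104 of 178 called higher (58.4%), with a median of 0.56. Type 2 vomeronasal receptor genes (Vmn2r) had 56 of 111 (50.5%), with a median of 0.30. These 3 families held 530 of the 1530 calls (34.6%) and 5.52% of the windows tested. Over all windows 6.06% were called higher and 81.4% lower, with a median ratio of -0.66. The family shares are given beside those of all windows as a description, and no test of a family as a set was made.

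Counts in these families moved with the inputs used. Olfactory calls numbered 230 without input 3 and 264 without input 4, and 244 against the 2 control inputs of the other kit. Type 1 vomeronasal calls numbered 72 without input 3, 82 without input 4 and 65 against the other inputs. The median ratios of the 3 families stayed above 0 in each of the settings tried. Reads of near-identical receptor genes may have been shared or dropped by the authors' mapping, so single members are uncertain.

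Among the olfactory genes, Olfr398 on chromosome 11 held 2.94 and 2.84 RPM in H3K9me3 and 0.283 and 0.473 RPM in input, a log2 ratio of 1.96 (SE 0.29, adjusted p = 0.000197, limma). Olfr401, in the same cluster, held 3.21 and 2.45 RPM against 0.346 and 0.402 RPM (1.92), and Olfr31 on chromosome 14 held 2.99 and 2.49 RPM against 0.441 and 0.331 RPM (1.87). Vmn2r74 held 3.99 and 3.43 RPM against 0.315 and 0.733 RPM (2.07). Vmn1r215 held 2.43 and 2.33 RPM against 0.378 and 0.307 RPM (1.77), and Vmn1r81 2.17 and 1.60 RPM against 0.283 and 0.166 RPM (1.71). None of the 6 genes had more than 1 read in either control RNA library, and their H3K9me3 and input values did not overlap.

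Other chemosensory families had shares of higher calls near the 6.06% of all windows, and fewer lower calls than the 81.4% of all windows. Formyl peptide and trace amine receptor genes had 1 of 22 windows called higher (4.55%) and 13 lower (59.1%), with a median ratio of -0.32. The 1 was Fpr-rs3, a formyl peptide receptor of vomeronasal neurons, with 2.43 and 2.05 RPM against 0.283 and 0.378 RPM (log2 ratio 1.72). Bitter taste receptor genes had 3 of 35 called higher (8.57%) and 8 lower (22.9%), with a median ratio of -0.12. Their higher calls numbered 0 without input 4 and 7 without H3K9me3 replicate 1. Tas2r130 was one of them, at 0.925 and 2.09 RPM in H3K9me3 against 0.409 and 0.378 RPM in input.

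Enzymes of foreign-compound and steroid metabolism formed another group. Cytochrome P450 genes of families 2 to 4 had 31 of 75 windows called higher (41.3%, against 6.06% of all windows), with a median ratio of 0.27. Cyp2d12 held 3.33 and 3.22 RPM in H3K9me3 and 0.378 and 0.449 RPM in input (log2 ratio 2.05), Cyp2d34 3.53 and 2.65 RPM against 0.315 and 0.449 RPM (2.02), and Cyp3a11, a main drug-oxidising enzyme of mouse liver, 2.68 and 3.16 RPM against 0.346 and 0.449 RPM (1.93). UDP glucuronosyltransferase genes, which conjugate bilirubin and drugs, had 7 of 21 called higher (33.3%) and 9 lower (42.9%, against 81.4% of all windows). Their higher calls numbered 4 without H3K9me3 replicate 2 and 3 without input 4.

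Serpin and pregnancy-specific glycoprotein genes also had shares of called windows above the 6.06% of all windows. Serpins of families a and b, which inhibit serine proteases, had 23 of 49 windows called higher (46.9%) and 16 lower, and 15 higher without input 4. Serpinb6d held 2.92 and 3.34 RPM in H3K9me3 against 0.283 and 0.544 RPM in input (log2 ratio 2.00), and Serpina3j 3.14 and 2.76 RPM against 0.362 and 0.520 RPM (1.88). Pregnancy-specific glycoprotein and Ceacam genes, expressed in placenta and on epithelia, had 15 of 28 called higher (53.6%), with a median ratio of 1.07. Psg26 held 2.77 and 2.41 RPM against 0.299 and 0.378 RPM (1.88), and Ceacam5 2.46 and 2.53 RPM against 0.362 and 0.213 RPM (1.93).

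Skint genes, which shape the gamma-delta T cells of the skin, had a median ratio of 0.90. Of 11 windows, 9 were called higher (81.8%, against 6.06% of all windows). Skint5 held 1.75 and 1.82 RPM in H3K9me3 against 0.346 and 0.237 RPM in input (log2 ratio 1.53). Against the other inputs 5 Skint windows were called higher. Major urinary protein genes (Mup), which encode the pheromone carriers of urine, had 15 of 20 called higher (75%). Their median input levels were 0.0472 and 0.0473 RPM, against 0.409 and 0.426 RPM over all windows, and 7 were called higher among windows with more than 5 input reads. Mup21, whose inputs were at 0.299 and 0.307 RPM, held 2.36 and 2.07 RPM in H3K9me3 (1.76).

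Other clustered families had between 12% and 28.6% of their windows called higher, against 6.06% of all windows. Defensin genes had 8 of 53 windows called higher, keratin-associated protein genes 6 of 50, kallikrein genes 6 of 28, killer cell lectin-like receptor genes 8 of 28, placental prolactin genes 5 of 25 and clustered protocadherin genes 4 of 24. Leaving out 1 library moved each of these counts by over 1.5 times. Without input 3 they were 1 for keratin-associated, 1 for killer cell lectin-like, 2 for prolactin and 2 for protocadherin genes. Without input 4 the killer cell lectin-like count was 2, the kallikrein count 3 and the protocadherin count 2. Without H3K9me3 replicate 1 the counts were 5 for defensins, 11 for kallikreins and 10 for protocadherins, and without replicate 2 they were 13 for defensins, 10 for keratin-associated, 3 for kallikrein and 2 for protocadherin genes.

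**Figure D3:**
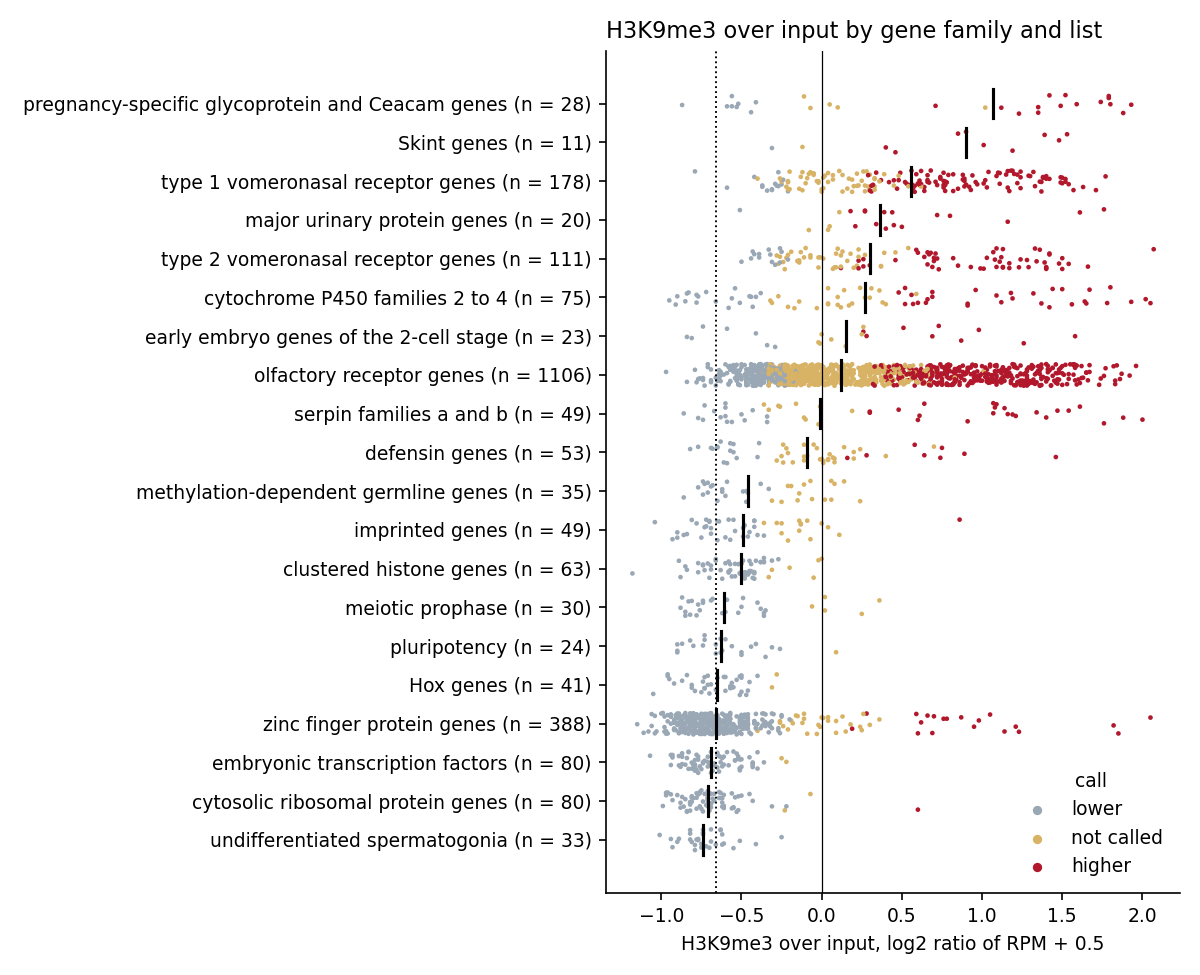
Log2 ratio of H3K9me3 to input for each member of 20 gene families and lists (1 point per window, coloured by its call); black bars mark the median of a family, the dotted line the median of all windows at -0.66 and the solid line a ratio of 0. Receptor, P450, Psg and Skint genes spread to ratios above 1, while Hox, ribosomal protein and spermatogonial genes gather near the dotted line.

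Windows called higher were grouped along the chromosomes. Of the 1530, 1043 (68.2%) had another called window as an adjacent gene, whereas 9.57% of all tested windows had one. Runs of at least 5 adjacent called windows numbered 65 and held 511 windows (33.4% of the calls). Counting gene starts within 2 kb of each other once left 1504 calls.

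The longest run held 21 windows over 680 kb of chromosome 11 (gene starts from 73589736 to 74269344), from Olfr385 to Olfr406-ps, with the zinc finger genes Zfp735 and Zfp616 among them. Its log2 ratios ran from 0.55 to 1.96, and 16 of the 21 passed the 2-fold rule. A run of 16 on chromosome 2 held Olfr338 to Olfr353 over 514 kb, with ratios from 0.78 to 1.83. On chromosome 7, 13 type 1 vomeronasal genes in a row (Vmn1r72 to Vmn1r84, 692 kb) had ratios from 0.61 to 1.71. Another 13 on the same chromosome spanned the androgen-binding protein cluster over 815 kb, with ratios from 0.84 to 2.41. A run of 13 on chromosome 4 spanned 548 kb up to Pramel4, in a cluster of oocyte- and embryo-expressed Pramel genes, with ratios from 0.72 to 2.14. Every window of each of these runs was called higher by the definition of a run.

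Zinc finger protein genes, some of whose products guide Setdb1 to transposons, were close to the whole set at their starts as deposited. They had 20 of 388 windows called higher (5.15%, against 6.06% of all windows) and a median ratio of -0.66, the same as all windows. The count was 9 against the other inputs, where the 1530 higher calls over all windows became 934. It also fell without input 3 and without input 4. The strongest were Zfp936, with 3.28 and 2.72 RPM in H3K9me3 against 0.252 and 0.449 RPM in input (log2 ratio 2.05), Zfp850, with 2.53 and 2.43 RPM against 0.393 and 0.260 RPM (1.85), and Zfp873, with 2.63 and 2.53 RPM against 0.299 and 0.449 RPM (1.82). Zfp936 had RNA at 6.92 and 6.54 RPM, Zfp873 at 3.04 and 3.11 RPM, and Zfp850 at 1.79 and 1.44 RPM. The windows sit at gene starts as deposited. No RefSeq start was matched within 500 bases to Zfp936, Zfp850 or Zfp873, so where these windows lie in the gene is not known. The 3′ exons were not measured separately.

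Predicted genes and pseudogenes held many of the remaining calls. Genes named Gm had 332 of 3656 windows called higher (9.08%) and Rik clone genes 96 of 2197 (4.37%), against 6.06% of all windows. Against the other inputs these counts were 196 and 60, and the 1530 higher calls over all windows became 934. Among windows matched to a RefSeq gene type, 88 of 507 pseudogenes (17.4%) were called higher, against 1106 of 20220 protein-coding genes (5.47%) and 68 of 1839 long non-coding RNA genes (3.70%).

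Genes of the 2-cell embryo are expressed when the zygotic genome starts to be read. They had 9 of 23 windows called higher (39.1%) and 7 lower (30.4%), with a median ratio of 0.15. Over all windows the shares were 6.06% and 81.4%. Tdpoz3 held 1.92 and 2.29 RPM in H3K9me3 against 0.409 and 0.331 RPM in input (log2 ratio 1.58). Dub1a held 1.31 and 1.78 RPM against 0.362 and 0.331 RPM (1.26), Zscan4d 0.633 and 0.948 RPM against 0.110 and 0.189 RPM (0.98), and Sp110 0.973 and 1.16 RPM against 0.409 and 0.307 RPM (0.87). The call of Sp110 was lost without input 4 (adjusted p = 0.128, limma), and the list had 5 calls when windows had to average at least 0.25 RPM. Tdpoz3, Dub1a and Zscan4d had no read in control RNA.

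Imprinted genes, which are expressed from 1 parental copy, had a median ratio of -0.49. Of 49 windows, 1 was called higher (2.04%, against 6.06% of all windows) and 34 lower (69.4%, against 81.4%). The 1 called higher was Igf2, a paternally expressed growth factor. It held 1.09 and 1.84 RPM in H3K9me3 against 0.472 and 0.662 RPM in input, a log2 ratio of 0.86 (adjusted p = 0.0149, limma). In limma the call was lost without input 3 (adjusted p = 0.245) and without input 4 (adjusted p = 0.103). Peg3, a paternally expressed zinc finger gene, was not called, at 0.268 and 0.375 RPM against 0.535 and 0.568 RPM.

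Germline genes known to depend on DNA methylation for their silencing in body cells had 0 of 35 windows called higher, also at an unadjusted p under 0.05 and by voom, and 20 lower (57.1%, against 81.4% of all windows). Their median ratio was -0.46. Without H3K9me3 replicate 2, 1 of them was called higher, namely Dpep3, a dipeptidase of the testis. Dpep3 held 1.12 RPM in replicate 1 and 0.296 RPM in replicate 2, against inputs at 0.456 and 0.615 RPM, so the replicates lay on either side of the inputs. Rhox13 on the X chromosome had the highest ratio of the list, at 0.462 and 0.336 RPM against 0.189 and 0.331 RPM (log2 ratio 0.24, adjusted p = 0.145, limma). Tex19.2, a testis gene, held 0.341 and 0.336 RPM against 0.283 and 0.307 RPM (0.08). After median centring 9 of the 35 were called higher and 0 lower, against 18.6% and 0.463% of all windows.

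The piRNA pathway silences transposons in the male germline. It had 0 of 25 windows called higher by limma, against 6.06% of all windows. The count was also 0 at limma's unadjusted p under 0.05 and by voom. Of the 25, 18 were called lower (72%, against 81.4% of all windows), and the median ratio was -0.66. Mov10l1, a helicase of piRNA formation, held 0.535 and 0.454 RPM in H3K9me3 against 0.409 and 0.497 RPM in input, and Fkbp6 held 0.462 and 0.632 RPM against 0.488 and 0.520 RPM. Mael held 0.584 and 0.375 RPM against 0.535 and 0.615 RPM. The H3K9me3 and input values of these 3 genes overlapped, and the 3 had RNA at 447 and 444, 414 and 418, and 346 and 346 RPM.

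Genes of meiotic prophase had 0 of 30 windows called higher by limma, against 6.06% of all windows. The count was also 0 at limma's unadjusted p under 0.05 and by voom. Of the 30, 25 were called lower (83.3%, against 81.4% of all windows), and the median ratio was -0.61. Spata22, a recombination factor, had the highest ratio, at 0.827 and 0.572 RPM in H3K9me3 against 0.488 and 0.378 RPM in input (log2 ratio 0.36, adjusted p = 0.111, limma), and was called higher without H3K9me3 replicate 2 (adjusted p = 0.0202). Sycp1, a protein of the synaptonemal complex, held 0.925 and 0.316 RPM against 0.661 and 0.473 RPM. Sycp3, of the same complex, was called lower, at 0.0730 and 0.138 RPM against 0.393 and 0.307 RPM. Genes of spermatids and sperm had 0 of 31 called higher, by limma at either threshold and by voom, and 27 lower (87.1%).

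Genes of undifferentiated spermatogonia, the state of these cells, had H3K9me3 near that of a typical gene. All 33 windows were called lower, against 81.4% of all windows, and 0 higher by limma (also 0 at an unadjusted p under 0.05) or voom. Their median ratio was -0.74, against -0.66 over all windows. Zbtb16, a transcription factor of spermatogonial self-renewal, held 0.0487 and 0.118 RPM in H3K9me3 against 0.346 and 0.591 RPM in input (log2 ratio -0.72). Etv5, another such factor, held a value of no read in replicate 1 and 0.0395 RPM in replicate 2, against 0.551 and 0.591 RPM (-1.01). After median centring 0 of the 33 were called lower and 1 higher, against 0.463% and 18.6% of all windows. The broad germ cell genes Dazl and Ddx4 were not called. Dazl, an RNA-binding protein, held 0.268 and 0.237 RPM against 0.252 and 0.473 RPM, and Ddx4, an RNA helicase, 0.316 and 0.375 RPM against 0.488 and 0.520 RPM.

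Developmental regulators were close to a typical gene. Over all windows 6.06% were called higher and 81.4% lower. Hox genes, which pattern the body axis, had 0 of 41 windows called higher and 39 lower (95.1%, median -0.65). Embryonic transcription factors had 0 of 80 higher and 78 lower (97.5%, median -0.69), and pluripotency genes 0 of 24 higher and 23 lower (95.8%, median -0.63). For each of the 3 lists, neither voom nor limma's p before adjustment (under 0.05) gave a higher call. Nanog, a pluripotency factor, was the pluripotency gene not called, at 0.414 and 0.375 RPM in H3K9me3 against 0.299 and 0.378 RPM in input (log2 ratio 0.09), with RNA at 1.12 and 0.879 RPM. Pou5f1, another pluripotency factor, was at 0.0973 and 0.0987 RPM against 0.378 and 0.520 RPM (-0.66), with RNA at 54.8 and 51.5 RPM. After median centring 0 windows of these 3 lists were called lower, and 0, 2 and 3 were called higher. Over all windows the shares after centring were 0.463% lower and 18.6% higher.

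The genes that write the mark were close to a typical gene. The 10 H3K9 methyltransferase and cofactor genes had 0 windows called higher by limma (0 at an unadjusted p under 0.05) or voom, and 9 lower (90%, against 81.4% of all windows), with a median ratio of -0.68. Genes of the HUSH complex, MORC proteins and heterochromatin proteins, which include readers of the mark, had 0 of 15 higher by the same 3 measures and 14 lower (93.3%), with a median of -0.81. Trim28 held 0.0487 and 0.0592 RPM in H3K9me3 against 0.393 and 0.544 RPM in input (log2 ratio -0.80), and Ehmt2, which dimethylates the same residue, 0.0487 and 0.0592 RPM against 0.378 and 0.284 RPM (-0.58). Setdb1 held 0.0973 and 0.0197 RPM against 0.173 and 0.260 RPM (-0.36). Suv39h1 held 0.146 and 0.0197 RPM against 0.205 and 0.237 RPM (-0.31), and Suv39h2 0.170 RPM and no read against 0.551 and 0.307 RPM (-0.64). Without H3K9me3 replicate 2 the calls of Setdb1 (adjusted p = 0.108), Suv39h1 (0.295) and Suv39h2 (0.0629) were lost in limma, and after median centring Setdb1 and Suv39h1 were called higher, at ratios of 0.31 and 0.36. RNA of Setdb1 was at 161 and 165 RPM, of Trim28 at 481 and 492 RPM and of Ehmt2 at 489 and 478 RPM.

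Ribosomal protein genes had 1 of 80 windows called higher (1.25%, against 6.06% of all windows) and 77 lower (96.2%, against 81.4%). The 1 was Rpl39l, a testis-expressed copy of Rpl39, at 1.07 and 0.454 RPM in H3K9me3 against 0.331 and 0.284 RPM in input (adjusted p = 0.0323, limma). In limma the call was lost without H3K9me3 replicate 1 (adjusted p = 0.174), without input 3 (0.0787) and without input 4 (0.152). Clustered histone genes had 0 of 63 called higher by limma (0 at an unadjusted p under 0.05) or voom, and 57 lower (90.5%).

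H3K9me3 was then set beside the other marks measured in the same genotype. A window was taken to carry H3K4me3, the mark of active promoters, where it was at least 1.5 above its input on the log2 scale in both control libraries, and H3K27me3, the Polycomb mark, where it was at least 1 above. Of 9764 windows with neither mark, 1438 (14.7%) were called higher in H3K9me3. Of 549 with H3K27me3 alone, 61 (11.1%) were. Of 12944 with H3K4me3 alone, 28 (0.216%) were, and of 1992 with both marks, 3 (0.151%) were. Of the 1530 called windows, 2.03% thus carried H3K4me3 and 4.18% carried H3K27me3. By class, 1.83% of them had H3K4me3 alone, 3.99% H3K27me3 alone and 0.196% both marks. Over all tested windows these shares were 51.3%, 2.17% and 7.89%. At a ratio of 2 in place of 1 for the Polycomb mark, 0.784% of the called windows carried it.

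The windows with both H3K9me3 and H3K4me3 were picked out after their values were seen. 3110070M22Rik held 5.40 and 5.69 RPM in H3K9me3 against 1.31 and 1.16 RPM in input (log2 ratio 1.8). Wfdc15a, a secreted protease inhibitor gene, held 2.31 and 1.20 RPM against 0.331 and 0.402 RPM (1.34). Tcfl5, a transcription factor of spermatocytes, held 0.827 and 0.928 RPM against 0.315 and 0.307 RPM (0.76), with RNA at 108 and 108 RPM. D1Pas1, a DEAD-box RNA helicase gene of the testis, held 1.12 and 1.28 RPM against 0.331 and 0.426 RPM (0.95), with RNA at 24.4 and 23.4 RPM. The calls of Tcfl5 and D1Pas1 were lost without input 3 (adjusted p = 0.0678 and 0.103, limma), without input 4 (0.0830 and 0.0506) and against the other inputs (0.200 and 0.119). A window with 2 marks may hold them on different alleles, cells or nucleosomes, which ChIP-seq of bulk cells does not separate.

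Control RNA fell with H3K9me3 across windows. Of 1502 called windows in the RNA table, 192 (12.8%) had RNA at 1 RPM or more, against 56.5% of all tested windows in it and 64.5% of those called lower. The share of windows called higher was 19.7% among the 5032 with a log2 RNA level below -5, 6.80% between -5 and -2, 3.10% between 0 and 2 and 0.651% between 4 and 6. Above 6 it was 1.13%, or 34 of 3010 windows. Among windows with neither H3K4me3 nor H3K27me3, the share was 22% below -5 and between 7.00% and 10.3% at each higher level.

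RNA was high at a few windows with H3K9me3. Of the windows called higher, 65 had RNA at 16 RPM or more, of which 27 are pseudogenes by their -ps name or in RefSeq, and 24 are protein-coding in RefSeq. Reads of a pseudogene can belong to its parent gene. Slc22a27, an organic anion transporter gene, held 1.05 and 0.750 RPM in H3K9me3 against 0.157 and 0.237 RPM in input (log2 ratio 1.00), with RNA at 175 and 188 RPM. Phf21a, a component of a histone demethylase complex, held 2.58 and 1.99 RPM against 0.252 and 0.449 RPM (1.71), with RNA at 60.8 and 61.7 RPM. Neto2, a subunit of kainate receptors, held 2.97 and 1.62 RPM against 0.393 and 0.237 RPM (1.74), with RNA at 26.7 and 24.9 RPM. Phf21a and Neto2 were picked after their values were seen. These 3 windows had no H3K4me3 by the rule above, and RNA was counted per gene, so it may start elsewhere than at the window.

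CpG content could be read for the windows whose gene start lay within 500 bases of a RefSeq start. That held for 61.0% of the windows called higher and 64.3% of all tested, under the 80% needed, so the comparison is void for the whole set and describes the matched windows only. Matched windows called higher had a median of 1 CpG in 300 bases, those called lower 17 and all matched windows 14. The share called higher was 29.1% among 1837 windows with 0 or 1 CpG, 14.8% with 2 or 3, 4.86% with 4 to 6, 1.32% with 7 to 10 and 0.124% with 21 or more. The median GC content was 39.3% for windows called higher and 59.0% for those called lower. GC content and CpG count differ together here, and the part of GC content in library preparation was not tested.

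**Figure D4:**
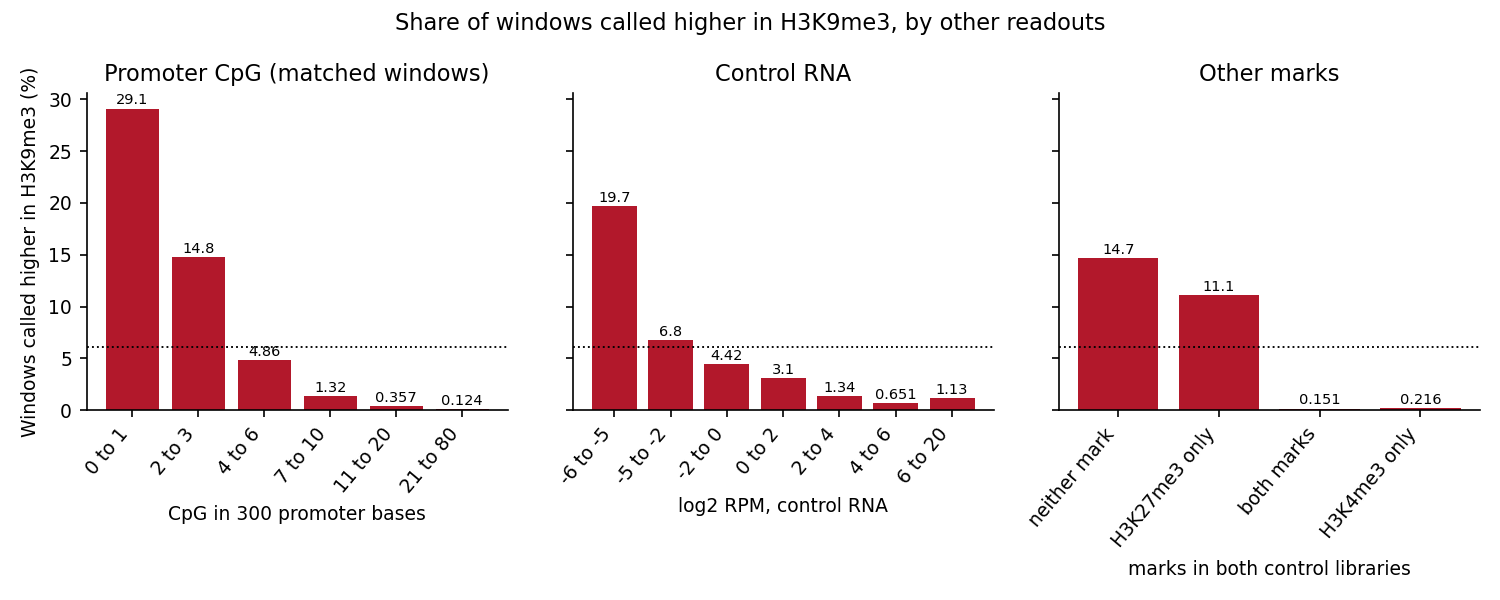
Percent of windows called higher in H3K9me3 (y axis), by CpG count of matched promoters, by log2 RPM of control RNA and by H3K4me3 and H3K27me3 (x axes); the dotted line is the share of all tested windows, 6.06%. The share falls from 29.1% to 0.124% with rising CpG count, and is under 1% at windows with H3K4me3.

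The 2 H3K9me3 libraries, from duplicate cell lines, lay far apart at a small set of windows. They were at least 1 log2 unit apart on the RPM + 0.5 scale at 243 windows (0.962%), 104 higher in replicate 1 and 139 higher in replicate 2. The inputs were that far apart at 0 windows. With 0.5 added, an input at the median of 0.409 or 0.426 RPM cannot fall by 1 unit, so the 2 counts are not a like comparison. At median levels of 0.073 and 0.079 RPM, most H3K9me3 windows had little room to differ either. The share of all windows thus does not measure disagreement among windows with the mark. Over all windows tested the Pearson correlation of the log2 values was 0.852 between the H3K9me3 libraries and 0.696 between the inputs, over 25249 windows that share libraries and are not replicates. Of the 243, 45 were called higher.

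The examples were chosen after their values were seen. Ctsk, the cathepsin of bone-resorbing cells, held 3.09 RPM in replicate 1 and 0.138 RPM in replicate 2, against inputs at 0.535 and 0.355 RPM. Gm454 held 4.57 and 0.276 RPM against 0.582 and 0.568 RPM. In the opposite direction, Anxa9, a membrane-binding annexin gene, held 0.0973 RPM in replicate 1 and 2.68 RPM in replicate 2, against 0.551 and 0.426 RPM, and Nlrp5, an oocyte gene needed by the early embryo, held 0.195 and 2.01 RPM against 0.488 and 0.307 RPM. At each of these genes 1 library lay above both inputs and the other below, and none was called. Ctsk was called higher without replicate 2 (adjusted p = 0.00290, limma) and Anxa9 without replicate 1 (0.00329). With 1 library in a group these values assume that it varies like the other group.

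The windows higher in replicate 2 held 48 olfactory receptor genes of 139, against 4 of 104 for those higher in replicate 1. Among all 25249 windows tested, 1106 were olfactory. RNA of 1 RPM or more was found at 7 of 139 and 33 of 100 in the RNA table, and H3K4me3 at 4 and 13. Of all tested windows in the RNA table, 56.5% had such RNA. Of all tested windows, 51.3% had H3K4me3 alone and 7.89% had it with H3K27me3. Median GC content of matched promoters was 38.3% (99 matched) and 48.0% (49 matched), against 56.8% over all. The part of GC content in this difference between the libraries was not tested. Summed over all olfactory windows, H3K9me3 was 1.66 times input in replicate 1 and 2.12 times in replicate 2.

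**Figure D5:**
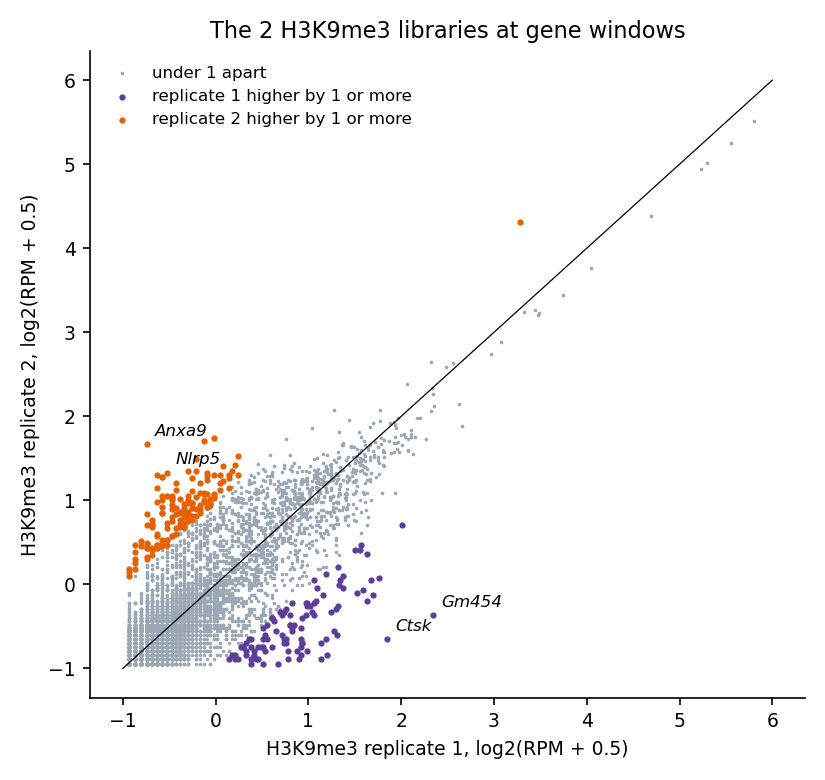
Level of each gene window in H3K9me3 replicate 1 (x axis) and replicate 2 (y axis), as log2(RPM + 0.5), with the line of equality. The 104 windows at least 1 higher in replicate 1 (purple) and the 139 higher in replicate 2 (orange) lie away from the line.

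The largest decrease lay at a window whose inputs were themselves high. Hjurp, a chaperone of centromeric chromatin, held 0.341 and 0.375 RPM in H3K9me3 against 2.42 and 2.65 RPM in input (log2 ratio -1.82), and Coil, the coilin of Cajal bodies, 0.195 and 0.296 RPM against 1.32 and 2.11 RPM (-1.55). Trpm8, a cold receptor gene next to Hjurp on chromosome 1, held 0.365 and 0.395 RPM against 2.35 and 2.67 RPM (-1.77). The starts of Hjurp (88277633, minus strand) and Trpm8 (88277661, plus) lie within 2 kb. Their input reads were 154 and 112 against 149 and 113. The 2 windows may thus hold largely the same reads and are not separate decreases. On the other side of Hjurp, Ugt1a1, which conjugates bilirubin, was called higher from an input as high, at 10.4 and 9.14 RPM in H3K9me3 against 2.42 and 2.27 RPM (1.85). In all, 27 windows had both inputs at 1 RPM or more, of which 18 were called higher and 4 lower. The highest of those named here was Sfi1, a centrosome gene with many partial copies in the mouse genome, at 46.4 and 37.6 RPM in H3K9me3 and 15.2 and 17.5 RPM in input (1.33). Its call was lost without H3K9me3 replicate 1 (adjusted p = 0.228, limma) and without replicate 2 (0.159).

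Chromosomes differed in their share of called windows. It was 3.01% on chromosome 3 and 3.06% on chromosome 11 at the low end, and 11.6% on chromosome 7, 9.83% on the X and 34.4% on the Y at the high end. The Y value rests on 125 tested windows, and 34 of its 43 called windows had at most 5 input reads in all. Summed RPM over windows in H3K9me3 was 0.717 and 0.788 times that of input on the X, against 0.598 and 0.666 on chromosome 7 and 0.314 and 0.315 on chromosome 3. Over all chromosomes 162 windows called higher had at most 5 input reads, and 1366 windows were called higher when such windows were left out.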

How the data were processed

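Chromatin was immunoprecipitated with an antibody to H3K9me3 or kept as input, and sequenced, in duplicate control GSC lines. The deposited ChIP-seq and RNA-seq tables hold log2 values of RPM per window or gene, made by the authors. The submitters' processing notes name CASAVA 1.8, Trim Galore 0.4.0, Bowtie 1.1.1, TopHat2 2.0.14 and build mm10, and give no roles to them. The width of a window and the handling of reads with several matches are not given in the sources used here. The lowest value of each column equals 0.9 of the step for 1 read and was read as no read, and every step gave whole reads within 0.1 read. Gene coordinates are those of the table (mm10), 1-based.

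Values were turned into RPM, and limma 3.58.1 (R 4.3.3) with an intensity trend was fitted to log2(RPM + 0.5) of 2 H3K9me3 libraries against 2 inputs, with Benjamini-Hochberg adjustment over 25249 windows and a threshold of 0.05. P-values rest on the spread between these 2 libraries per group, which limma moderates towards the trend of spread with level over all windows. They are thus not a measure of the spread at 1 window alone. Other pseudocounts, filters, scalings, inputs and tests, and leaving out each library, were tried as alternatives. A fold on this scale understates the change of windows with few reads. In simulated data, where 200 windows changed and all others equalled input, decreases were recovered less often than increases of the same size. The real libraries differ from input at most windows, so the rate of missed decreases in them was not measured. Gene families were matched by symbol. Promoters (RefSeq, GRCm38.p6) were matched by chromosome, strand and the nearest start within 500 bases, whatever the symbol, so some may belong to another gene. The genes named are the 15 highest called windows with at most 3 of a family, the 5 lowest, up to 3 per family or list, with called members of lists up to 6, and the H3K9 methyltransferase genes with Trim28. The text also names genes outside that rule, chosen after their values were seen: Trpm8, Sfi1, Peg3, Sycp3, Zbtb16, Etv5, Dazl, Ddx4, Pou5f1, the genes with H3K4me3, Phf21a, Neto2 and those that differ between replicates. The H3K9me3 libraries, the families and the lists were chosen with earlier results of these data known.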

Additional observations from a re-analysis of the deposited data

How the results depend on the processing

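The 1530 higher calls became 4692 after median centring, 936 after quantile normalization and 934 against the inputs of the other kit, and ranged from 1107 to 1721 with 1 library left out. The 20556 lower calls became 12176 at a mean of at least 0.25 RPM, 117 after median centring and 63 after quantile normalization, and ranged from 19149 to 20468 with 1 library left out. The 439 windows above 2-fold became 858 and 170 at pseudocounts of 0.1 and 1 RPM, 1130 after median centring, 281 against the other inputs, 256 against all 4 inputs and 486 to 753 with 1 library left out. By the form of that rule, leaving a library out can only keep or raise the count, and adding inputs can only keep or lower it. The median ratio of -0.66 was -1.54 and -0.39 at those pseudocounts, -0.72 at 0.25 RPM or more, 0.01 after median centring, -0.04 after quantile normalization, -0.79 against the other inputs, -0.74 against all 4, and -0.67 to -0.64 with 1 library left out. Families and lists of at least 10 windows with a median above 0 numbered 12, 37 after median centring, 29 after quantile normalization and 11 to 13 with 1 library left out. Voom on recovered reads gave 1605 higher calls, of which 1493 were among the 1530, and requiring more than 5 input reads, a setting chosen after seeing the data, gave 1366. Of windows called higher, 7.32% had RNA at a log2 RPM of 2 or more, and of those above 2-fold 8.60% had RNA, 0.456% H3K4me3 and 7.29% H3K27me3. At a ratio of 1, 3.01% of windows called higher had H3K4me3, and at 2, 0.784% had H3K27me3. After median centring the called direction reversed for Rpl36a (0.45), Sox3 (0.42), Nr0b1 (0.41), Col4a6 (0.40), Suv39h1 (0.36), Zfp42 (0.36), Col3a1 (0.32), Setdb1 (0.31) and Phf2 (0.27). After quantile normalization 73 named genes lost their call, 3 gained 1 and 104 did not change in this respect. Those that lost it included Vmn2r74 (adjusted p = 0.201, limma), 3110070M22Rik (0.162), Smok2b (0.155), Gm13089 (0.0873), Gm9898 (0.0595) and Serpinb6d (0.0539). The cause of these changes was not tested beyond what each setting does by construction. A median window held 3 and 4 H3K9me3 reads, so at such windows small ratios between genes were not detectable. No paired analysis was possible because the H3K9me3 libraries are numbered 1 and 2 and their inputs 3 and 4.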
